A study of Mus musculus with 8 samples.

Results

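Renal ion transporters and the sodium pump were taken as all protein-coding genes whose symbols name a member of the solute carrier families Slc4, Slc8, Slc9, Slc12, Slc13, Slc20, Slc24, Slc26 or Slc34, an alpha (Atp1a) or beta (Atp1b) subunit of the Na,K-ATPase, or an FXYD protein. This rule used names only and found 72 of the 55558 Ensembl genes in the deposited count table, of which 21896 were protein-coding. The genes were compared between mK4 and mK3, a pair of mouse cell lines that the labels place at different stages of metanephric mesenchyme, the embryonic tissue from which nephrons form. mK4 is labelled as differentiated towards epithelium and mK3 as uninduced. Both lines are labelled wild type, were given no treatment and grew in DMEM with fetal bovine serum. RNA-seq covered 3 libraries of mK4 and 3 of mK3. ATAC-seq, which maps open chromatin with a transposase that cuts accessible DNA, covered 1 library of each line. Each stage is represented by 1 line, so a difference between the lines and a difference between the stages cannot be told apart. Separate cultures are not named in the labels, and p-values therefore reflect library-to-library spread that may be only technical.

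Tubule cells move ions along a gradient that the sodium pump builds. The pump is made of a catalytic alpha subunit and a glycosylated beta subunit that brings alpha to the cell surface, and small FXYD proteins tune its kinetics. Sodium that re-enters the cell drives some, but not all, of the secondary carriers in these families. The Slc12 family couples sodium or potassium to chloride, most of Slc4 carries bicarbonate and Slc9 exchanges sodium for protons. Slc20 and Slc34 import phosphate, Slc8 and Slc24 export calcium, and Slc13 and Slc26 carry sulfate, dicarboxylates and other anions. Along the mature nephron these carriers mark segments, such as Slc34a1 and Slc9a3 in the proximal tubule, Slc12a1 in the thick ascending limb and Slc12a3 in the distal convoluted tubule.

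The libraries held 137559391 to 152952351 counts, and the 72 genes took 0.27 to 0.282% of the gene counts in mK4 and 0.205 to 0.218% in mK3. The fixed list of 12 epithelial and tubule markers summed to 1771 to 1853 CPM (each count scaled to the TMM-adjusted size of its library) in mK4, against 0.756 to 1.97 CPM in mK3. Most of the mK4 sum was 1 gene, Cdh6, at 1612 to 1711 CPM, and 6 of the 12 markers were tested, all higher. The other 6 were at or near 0 in both lines: Krt18 and Umod had 0 in all 6 libraries, and Cdh1, Epcam, Krt8 and Aqp2 averaged 0.275, 0, 0.035 and 0.053 CPM in mK4. The 9 nephron progenitor markers summed to 212 to 273 CPM in mK4 and 35.2 to 36.4 CPM in mK3, with Hoxd11 at 0 throughout. Eya1 alone gave 159 to 221 CPM of the mK4 sum, and 3 markers were called higher and 2 lower. Those called higher were Eya1, Pax2 and Sall1. Pax2 and Sall1 averaged 30.0 and 10.3 CPM in mK4 and had 0 counts in every mK3 library. Wt1 and Cited1 were too low to be tested, at 0.351 and 0.0241 CPM in mK4 and 0 and 0.0139 CPM in mK3. Osr1 was lower, at 2.25 CPM in mK4 and 11.2 CPM in mK3, and Gdnf averaged 7.68 CPM in mK4 and 13.95 CPM in mK3 without passing (edgeR's quasi-likelihood test, adjusted p = 0.0543). Six2, which defines nephron progenitors, had 0 counts in each mK4 library and 59, 15 and 61 in the mK3 libraries, so that a marker of the labelled state was near 0 in both lines. Of 8 erythroid markers 6 were at 0 in every library, and the 8 neuron markers summed to 38.8 to 46.0 CPM in mK4 and 60.1 to 71.4 CPM in mK3, with Snap25 and Nefl at 0. Of these, Syt1 averaged 0.0806 CPM in mK4 and 36.3 CPM in mK3, while Tubb3 averaged 41.2 CPM in mK4 and 27.0 CPM in mK3.

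A total of 42 of the 72 members had enough counts to be tested, and 14 were higher and 7 lower in mK4 at an adjusted p under 0.05 in edgeR's quasi-likelihood test, with Benjamini-Hochberg adjustment over all 20405 genes tested (given from here on as the edgeR adjusted p). These were 33.3% and 16.7% of the tested members, beside 20.8% of all tested genes called higher, 19.5% called lower and 40.3% called in either direction. Of the 13840 tested protein-coding genes, the kind to which all members belong, 24.7% were called higher and 23.8% lower. The share of members called higher was above both backgrounds and the share called lower was below both, while 50% of members and 51.5% of protein-coding genes were not called. Whether these shares of 42 genes differ from the backgrounds was not tested. With a 2-fold minimum, 11 of the 42 tested members were higher and 4 lower, against 13.2% and 10.2% of all tested genes. Of the 13840 tested protein-coding genes, 1979 were higher and 1534 lower by that measure. The median log2 fold change was 0.74 over the tested members and 0.02 over all tested genes. It was 0.20 over the 23 members with at least 1 CPM in all 6 libraries. Libraries of the lines did not overlap for 28 of the 42 members (66.7%), against 56.1% of all tested genes. The remaining 30 members had at most 98 counts in any library, and 14 of them were at 0 in all 6. A 0 was not firm evidence of absence, since 23 members had a library at 0 beside a library of the same line with 20 counts or more, such as Slc4a10 with 0, 98 and 0 counts in mK3. In these bulk samples, fewer cells carrying an RNA and less of it per cell cannot be told apart.

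**Figure D1:**
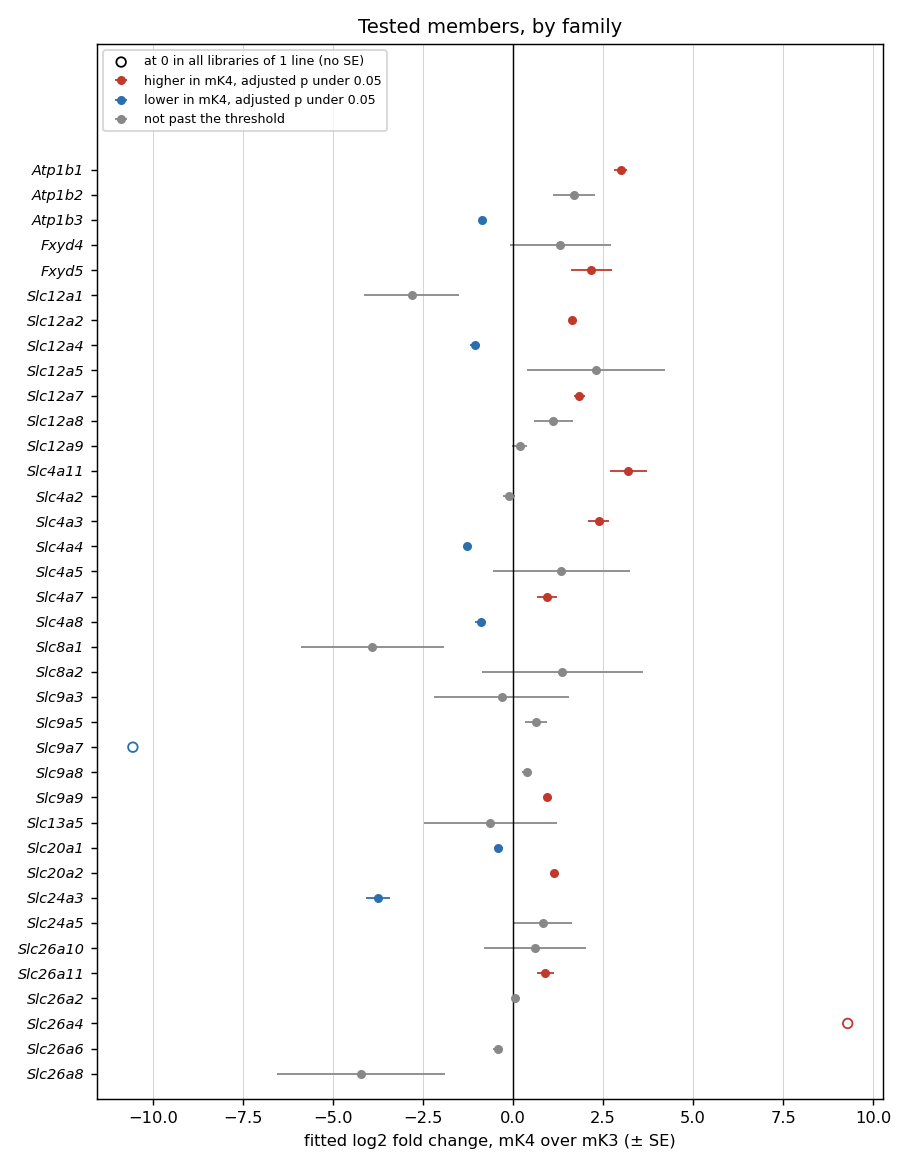
Fitted log2 fold change of mK4 over mK3 (x axis) for 37 of the 42 tested members, grouped by family (y axis). Points are edgeR estimates with bars of 1 SE; open circles are Slc9a7 and Slc26a4, drawn without a bar, each undetected in all libraries of mK4 or of mK3. The 11 red points to the right passed the test as higher in mK4, the 7 blue points to the left as lower, and the 19 grey points did not pass.

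Among the beta subunits of the sodium pump, beta 1 rose in mK4 and beta 3 fell. Atp1b1, the main beta subunit of kidney epithelium, had 89.6, 84.7 and 71.6 CPM in mK4 and 12.9, 9.48 and 8.64 CPM in mK3. It was 7.94-fold higher in mK4, with no overlap of the libraries (log2 fold change 2.99, SE 0.19, edgeR adjusted p = 9.8e-05). Atp1b3, a more widely expressed beta subunit, had 286, 294 and 273 CPM in mK4 and 456, 528 and 558 CPM in mK3. It was lower in all 3 mK4 libraries (log2 fold change -0.86, SE 0.09, edgeR adjusted p = 0.0006).

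The balance of the beta subunits can be read within each library, where gene length and library size cancel when the lines are compared. The ratio of Atp1b1 to Atp1b3 counts was 0.313, 0.289 and 0.262 in the mK4 libraries and 0.0282, 0.0179 and 0.0155 in the mK3 libraries. All 3 mK4 ratios lay above all 3 mK3 ratios, and the mean log2 ratio was -1.80 in mK4 and -5.65 in mK3, a 14.5-fold difference. The two-sided exact permutation p was 0.1, the smallest that 3 libraries against 3 allow, and the pairs compared in this way were chosen after their values were seen.

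**Figure D2:**
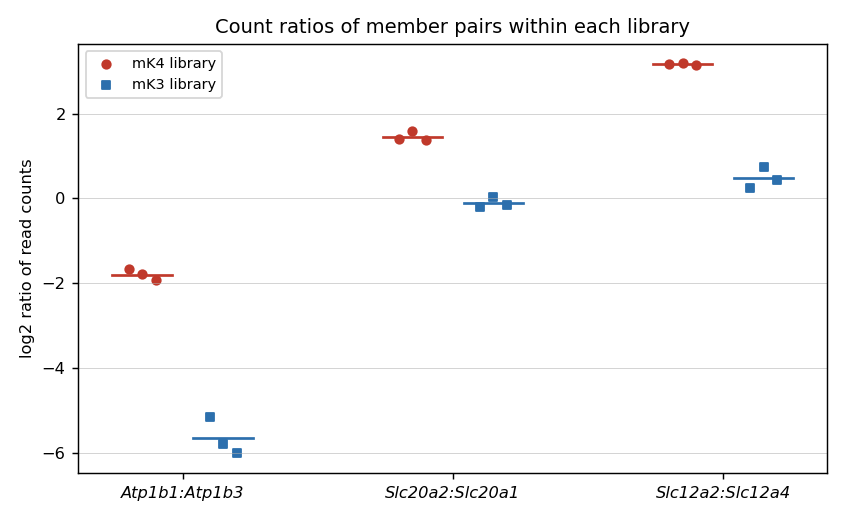
Log2 ratio of the read counts of member pairs (y axis) in each library, mK4 (red circles) left of mK3 (blue squares), with the mean as a line. For all 3 pairs on the x axis the mK4 libraries lie above the mK3 libraries, most widely for Atp1b1 to Atp1b3. Each pair sets a member called higher in mK4 over one called lower, chosen after the values were seen. The shared direction follows from that choice. Ratios are not levels per molecule, since gene length is not removed within a line.

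The starts of these beta subunit genes are shown because they moved in opposite directions and because both carry deposited ATAC-seq peaks. The sequences run from 250 bases before the RefSeq start to 50 bases after it, 5′ to 3′ on the strand of the gene, in GRCm38.p6 (mm10). For a gene with more than 1 RefSeq start, the window with the most bases under peaks, summed over the lines, is shown. Its coverage by peaks was thus selected for. Capitals mark motif matches, searched on both strands, with overlapping matches counted. The motifs were the GC box, with the letters GGGCGG, and the CCAAT box, whose letters are its name. The E-box was searched as CACGTG, and the cAMP response element as TGACGTCA.
Atp1b1: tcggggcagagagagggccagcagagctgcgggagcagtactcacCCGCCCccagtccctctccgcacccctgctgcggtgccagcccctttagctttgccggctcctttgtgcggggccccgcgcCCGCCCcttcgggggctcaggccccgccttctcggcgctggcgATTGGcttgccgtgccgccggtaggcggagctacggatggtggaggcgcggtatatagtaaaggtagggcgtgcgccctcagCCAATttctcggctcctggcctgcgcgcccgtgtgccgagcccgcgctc
Atp1b3: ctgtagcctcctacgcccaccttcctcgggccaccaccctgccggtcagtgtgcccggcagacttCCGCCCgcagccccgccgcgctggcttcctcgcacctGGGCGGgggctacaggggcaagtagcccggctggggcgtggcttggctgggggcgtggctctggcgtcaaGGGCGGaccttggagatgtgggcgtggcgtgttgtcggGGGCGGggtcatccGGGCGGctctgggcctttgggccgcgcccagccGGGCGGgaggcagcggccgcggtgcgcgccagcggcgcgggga
The Atp1b1 window, chr1:164458306-164458605 on the minus strand, held 2 GC boxes and 2 CCAAT boxes, and a peak covered 0 of its bases in mK4 and 171 in mK3. An mK4 peak was listed just beyond the window, with its summit 406 bases after the start. The Atp1b3 window, chr9:96364382-96364681 on the minus strand and 1 of 2 RefSeq starts, held 6 GC boxes and no CCAAT box, and peaks covered all 300 bases in both lines. Over the 32851 RefSeq windows of this length, 35.7% held a GC box, 37.4% a CCAAT box, 7.2% an E-box and 1.8% a cAMP response element.

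Atp1b2 stood at 0.373 ± 0.096 CPM in mK4 and 0.115 ± 0.0495 CPM in mK3 and did not pass (edgeR adjusted p = 0.0593). Among FXYD genes, Fxyd2, the gamma subunit of the renal pump, was at 0 in all 6 libraries, as were Fxyd6 and Fxyd7. Fxyd5, which encodes dysadherin, had 0.901, 1.39 and 0.466 CPM in mK4 and 0.216, 0.264 and 0.129 CPM in mK3, 123, 211 and 70 counts against 31, 35 and 16. It was called higher in mK4 at this low level (log2 fold change 2.17, SE 0.56, edgeR adjusted p = 0.0238), and kept the call, when 1 library was left out, only where that was mK4 replicate 3 (range 0.00234 to 0.0875 over 12 alternatives). The median over 1214 tested genes of its chromosome 7 was 0.60 on the log2 scale, and the part of that shift was not tested.

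Among the cation-chloride cotransporters of the Slc12 family, Slc12a2 and Slc12a7 were higher in mK4 and Slc12a4 was lower. Slc12a2, which encodes NKCC1, the widely expressed sodium-potassium-chloride importer, had 339, 363 and 358 CPM in mK4 and 114, 114 and 111 CPM in mK3. The libraries of each line lay close together and far apart from the other line, and the log2 fold change was 1.65 (SE 0.06, edgeR adjusted p = 1.6e-05). The potassium-chloride exporters, which counter it, did not move as 1 group. Slc12a4 (KCC1) had 37.4, 40.0 and 40.5 CPM in mK4 and 96.0, 68.6 and 81.6 CPM in mK3, lower in every mK4 library (log2 fold change -1.06, SE 0.13, edgeR adjusted p = 0.00135). Slc12a7 (KCC4) had 19.3, 16.9 and 17.2 CPM in mK4 and 5.75, 4.56 and 4.58 CPM in mK3. It was higher in mK4 without overlap (log2 fold change 1.84, SE 0.15, edgeR adjusted p = 0.000246). The ratio of Slc12a2 to Slc12a4 counts was 9.06, 9.07 and 8.84 in mK4 and 1.19, 1.66 and 1.36 in mK3, a 6.48-fold difference (two-sided exact permutation p = 0.1, the smallest possible).

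The 2 members that are specific to tubule segments in this family were low in both lines. Slc12a1, the NKCC2 of the thick ascending limb, had 0.300, 0 and 0.320 CPM in mK4 and 0.995, 1.88 and 1.51 CPM in mK3. Its libraries did not overlap, yet it did not pass (edgeR adjusted p = 0.142), except without mK4 replicate 2 (edgeR adjusted p = 0.0189, range 0.0189 to 0.279 over 12 alternatives). Slc12a3, the thiazide-sensitive cotransporter, had 0 counts in all mK4 libraries and 6, 0 and 27 in the mK3 libraries and was too low to be tested. Slc12a5, the neuronal KCC2, had 1.58, 0.801 and 0.293 CPM in mK4 and 0.536, 0 and 0 CPM in mK3 (edgeR adjusted p = 0.392).

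The exporter genes that moved apart are shown at their starts, with the same marks, since peaks of both lines lay over each window.
Slc12a7: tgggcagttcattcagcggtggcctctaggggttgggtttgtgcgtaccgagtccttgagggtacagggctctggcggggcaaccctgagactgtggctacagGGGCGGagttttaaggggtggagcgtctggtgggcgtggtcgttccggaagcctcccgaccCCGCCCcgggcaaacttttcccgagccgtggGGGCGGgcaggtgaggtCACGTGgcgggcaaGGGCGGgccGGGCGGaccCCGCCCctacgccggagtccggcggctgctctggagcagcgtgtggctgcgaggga
Slc12a4: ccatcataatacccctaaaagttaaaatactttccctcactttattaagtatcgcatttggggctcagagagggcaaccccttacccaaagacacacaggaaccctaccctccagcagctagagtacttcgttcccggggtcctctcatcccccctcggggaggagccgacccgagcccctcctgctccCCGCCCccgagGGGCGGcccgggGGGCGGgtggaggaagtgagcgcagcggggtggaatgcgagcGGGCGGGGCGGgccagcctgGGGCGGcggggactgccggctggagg
The Slc12a7 window, chr13:73763447-73763746 on the plus strand, is 1 of 2 RefSeq starts and lay wholly under a peak in both lines. It was shown because it had the most bases under peaks. The RefSeq span of Slc12a7 begins at 73733052, and the peaks listed within that span began at 73763349 or later. The window shown held the following motifs. It held 6 GC boxes and 1 E-box. The Slc12a4 window, chr8:105966066-105966365 on the minus strand, held 6 GC boxes, and peaks covered 195 of its bases in mK4 and 221 in mK3. Of the 65 windows available for 52 of the 72 members, 29 held a GC box, 29 a CCAAT box, 10 an E-box and 0 a cAMP response element.

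**Figure D3:**
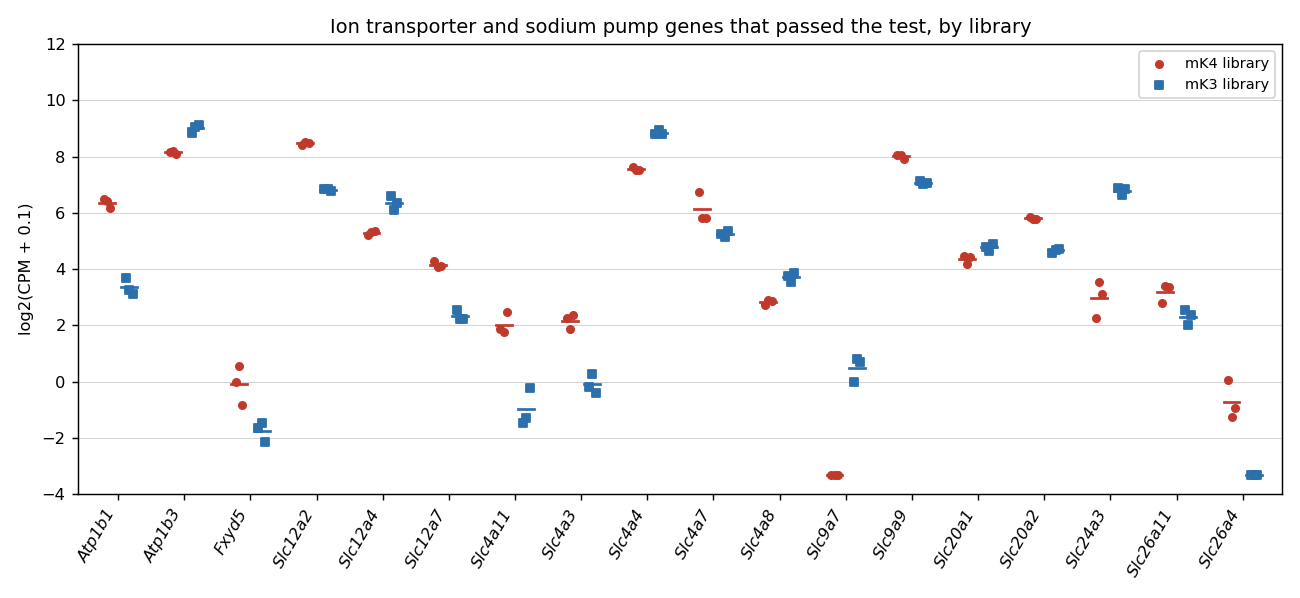
Log2 of CPM + 0.1 (y axis) in each library for 18 of the 21 members that passed the test (x axis, by family), mK4 (red circles) left of mK3 (blue squares), with the mean as a line. Atp1b1 and Slc12a2 are higher in mK4, Atp1b3, Slc4a4 and Slc24a3 lower, and Slc9a7 is at 0 in mK4 and Slc26a4 at 0 in mK3.

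Members of the Slc4 family were split, with 3 higher and 2 lower in mK4 among 7 tested. Slc4a4, which encodes NBCe1, the basolateral sodium-bicarbonate cotransporter of the proximal tubule, had 196, 183 and 185 CPM in mK4 and 441, 488 and 441 CPM in mK3. It was 2.43-fold lower in mK4 by the ratio of means, with all libraries apart (log2 fold change -1.28, SE 0.07, edgeR adjusted p = 5.37e-05). Slc4a8, a sodium-driven chloride-bicarbonate exchanger, stood at 6.97 ± 0.472 CPM in mK4 and 13.1 ± 1.48 CPM in mK3 (log2 fold change -0.91, SE 0.14, edgeR adjusted p = 0.00343). The median over 691 tested genes of its chromosome 15 was -0.50 on the same scale, and the part of that shift was not tested.

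The anion exchanger gene Slc4a3 (AE3) had 4.75, 3.57 and 5.01 CPM in mK4 and 0.786, 1.11 and 0.660 CPM in mK3, higher without overlap (log2 fold change 2.38, SE 0.29, edgeR adjusted p = 0.00127). Slc4a11, whose product conducts protons and is known from the corneal endothelium, had 3.57, 3.26 and 5.41 CPM in mK4 and 0.264, 0.310 and 0.757 CPM in mK3. Its libraries were apart as well (log2 fold change 3.20, SE 0.51, edgeR adjusted p = 0.0036). Slc4a7, the electroneutral sodium-bicarbonate cotransporter, had 106, 56.0 and 56.9 CPM in mK4, where replicate 1 stood high, and 37.6, 35.3 and 41.1 CPM in mK3. It passed (log2 fold change 0.94, SE 0.27, edgeR adjusted p = 0.0329) but not without any single mK3 library (range 0.00189 to 0.0987 over 13 alternatives), and the tested genes of its chromosome 14 had a median of -0.42. Slc4a2, the common anion exchanger AE2, stood at 19.7 ± 1.88 CPM in mK4 and 21.4 ± 4.11 CPM in mK3 (edgeR adjusted p = 0.613). Slc4a1, the exchanger of red cells and of acid-secreting cells of the collecting duct, was at 0 in all 6 libraries.

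Of 7 tested sodium-proton exchangers of the Slc9 family, 1 was higher in mK4 and 1 lower, both of which act inside the cell. These genes, like Slc4a7, Slc4a8, Slc26a11 and Fxyd5, were chosen after their values were seen. Slc9a9, an exchanger of late recycling endosomes, had 266, 267 and 243 CPM in mK4 and 139.8, 129 and 135 CPM in mK3. It was higher in every mK4 library (log2 fold change 0.94, SE 0.07, edgeR adjusted p = 0.00015). Slc9a7, an exchanger of the trans-Golgi network, had 0 counts in all mK4 libraries and 129, 218 and 187 counts in the mK3 libraries. It was at least 65.7-fold lower in mK4 against a floor of 3 counts per library (edgeR adjusted p = 0.00112), and this floor, like every other here, covers counting error only. Slc9a8 of the Golgi stood at 39.3 ± 2.32 CPM in mK4 and 30.3 ± 4.39 CPM in mK3 (edgeR adjusted p = 0.0595). Slc9a3, the apical exchanger of the proximal tubule, had 0.388, 0 and 0.233 CPM in mK4 and 0.244, 0.529 and 0 CPM in mK3, near 0 in both lines (edgeR adjusted p = 0.913).

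Of the phosphate importers, only the widely expressed Slc20 pair could be tested. Slc20a2 (PiT-2) had 57.8, 54.8 and 55.3 CPM in mK4 and 23.9, 25.6 and 26.4 CPM in mK3, higher in mK4 without overlap (log2 fold change 1.15, SE 0.08, edgeR adjusted p = 0.000148). Slc20a1 (PiT-1) had 22, 18.2 and 21.4 CPM in mK4 and 27.5, 25.0 and 29.5 CPM in mK3. It was lower in mK4 by a log2 fold change of -0.41 (SE 0.12, edgeR adjusted p = 0.0345), and lost that call without any library other than mK3 replicate 2 and without TMM scaling (range 0.00464 to 0.105 over 13 alternatives). The ratio of Slc20a2 to Slc20a1 counts was 2.63, 3.01 and 2.59 in mK4 and 0.868, 1.02 and 0.895 in mK3, a 2.96-fold difference (two-sided exact permutation p = 0.1, the smallest possible). Slc34a1 and Slc34a3, the phosphate importers of the proximal tubule brush border, were at 0 in all 6 libraries, and Slc34a2 reached 10, 0 and 35 counts in the mK4 libraries, against 0 in each mK3 library.

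Of the 4 tested calcium exporters, 2 each in Slc8 and Slc24, only Slc24a3, a potassium-dependent sodium-calcium exchanger, passed. It had 4.69, 11.5 and 8.46 CPM in mK4 and 118, 99.9 and 115 CPM in mK3. The groups were far apart, although the mK4 libraries varied among themselves, and the log2 fold change was -3.76 (SE 0.34, edgeR adjusted p = 0.000401). Slc8a1, the sodium-calcium exchanger NCX1, had 0, 0 and 0.520 CPM in mK4 and 1.06, 0.869 and 5.93 CPM in mK3. Its groups did not overlap, but mK3 replicate 3 stood far above the other two and the gene did not pass (edgeR adjusted p = 0.175).

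In the Slc26 family of anion exchangers, mK4 had 2 of 6 tested genes higher and 0 lower. Slc26a4, which encodes pendrin, the chloride-bicarbonate exchanger of base-secreting cells of the collecting duct, had 127, 49 and 64 counts in the mK4 libraries and 0 in all mK3 libraries. At 0.930, 0.322 and 0.426 CPM in mK4 it was at least 24.8-fold higher against the floor of 3 counts per library (edgeR adjusted p = 0.00477). Slc26a11, a sulfate carrier, had 6.92, 10.4 and 10.1 CPM in mK4 and 5.72, 3.95 and 5.08 CPM in mK3 (log2 fold change 0.89, SE 0.23, edgeR adjusted p = 0.0236). The call was lost without mK4 replicate 2 or 3 or mK3 replicate 2 or 3 (range 0.00246 to 0.0855 over 13 alternatives). Slc26a2, the sulfate carrier needed for cartilage, stood at 18.5 ± 1.10 CPM in mK4 and 17.7 ± 0.660 CPM in mK3 (edgeR adjusted p = 0.696), and Slc26a6 at 12.7 ± 1.64 CPM in mK4 and 17.1 ± 1.62 CPM in mK3 (edgeR adjusted p = 0.0559). In the Slc13 family of sulfate and dicarboxylate carriers only Slc13a5 could be tested, at 0.159 ± 0.142 CPM in mK4 and 0.247 ± 0.215 CPM in mK3 (edgeR adjusted p = 0.818).

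The 21 tested members that did not pass had edgeR adjusted p-values of 0.0559 to 0.95, and 8 of them had a mean of at least 5 CPM in both lines. A p that misses the threshold does not show that they were equal, and 7 of the 21 had libraries that did not overlap. Among the called members, Atp1b1, Slc9a7, Slc20a2, Slc24a3 and Slc26a11 share part of their span with another protein-coding gene in RefSeq. Whether reads were counted by strand is not stated in the labels.

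Genes that act with these transporters were counted in 5 lists. Of the 86 listed genes that were found, 59 could be tested, and 17 were higher and 12 lower in mK4, beside 20.8% and 19.5% of all tested genes. The median log2 fold change was 0.27. The shares were 28.8% and 20.3%, beside 24.7% and 23.8% of tested protein-coding genes.

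The list of WNK-SPAK and aldosterone control had 3 of 14 tested genes higher and 5 lower, and its kinases moved in opposite directions. WNK kinases sense chloride and activate SPAK and OSR1, which phosphorylate the Slc12 cotransporters. Stk39, which encodes SPAK, had 54.9, 36.3 and 37.7 CPM in mK4 and 0.661, 0.710 and 1.24 CPM in mK3. It was 49.3-fold higher in mK4 (log2 fold change 5.63, SE 0.35, edgeR adjusted p = 9.73e-05). Wnk4, the kinase best known from the distal tubule, had 4.78, 4.62 and 4.80 CPM in mK4 and 0.926, 0.068 and 0.177 CPM in mK3 (log2 fold change 3.59, SE 0.94, edgeR adjusted p = 0.0249). Without any single mK4 library or mK3 replicate 3, Wnk4 lost its call (range 0.000119 to 0.0751 over 12 alternatives). Wnk3 was chosen after its values were seen. It had 0.469, 0.952 and 2.38 CPM in mK4 and 8.29, 19.9 and 10.7 CPM in mK3, lower without overlap (log2 fold change -3.36, SE 0.69, edgeR adjusted p = 0.00982). Nr3c1, the glucocorticoid receptor gene, and Cab39l, which encodes an MO25 scaffold of these kinases, fell to 412 ± 43.2 and 165 ± 14.7 CPM in mK4, against 919 ± 36.8 and 366 ± 23.4 CPM in mK3 (edgeR adjusted p = 0.00018 and 0.000198). Wnk1 stood at 231 and 220.2 CPM in mK4 and mK3 (edgeR adjusted p = 0.345), and Oxsr1, which encodes OSR1, at 104 and 119 CPM in mK4 and mK3 (edgeR adjusted p = 0.126).

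**Figure D4:**
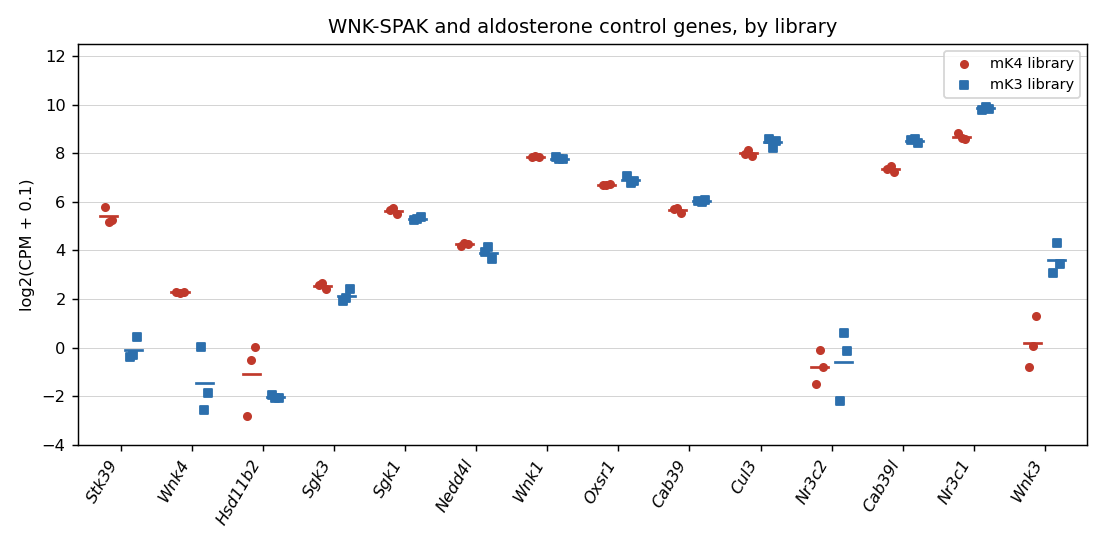
Log2 of CPM + 0.1 (y axis) in each library for the 14 tested genes of WNK-SPAK and aldosterone control (x axis, ordered by fold change), mK4 (red circles) left of mK3 (blue squares), with the mean as a line. Stk39 and Wnk4 lie higher in mK4, Wnk3, Nr3c1 and Cab39l lower, and Wnk1 at nearly the same level.

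Among scaffolds and exchanger partners, 4 of 11 tested genes were higher and 2 lower. Slc9a3r1, which encodes NHERF1, the apical scaffold of NHE3 and the renal phosphate importers, was 97.3 ± 15.2 CPM in mK4 and 43.6 ± 1.66 CPM in mK3 (log2 fold change 1.16, SE 0.12, edgeR adjusted p = 0.000723). Ank3, an ankyrin that ties the sodium pump to the basolateral cytoskeleton, was 29.4 ± 2.84 CPM in mK4 and 7.89 ± 0.607 CPM in mK3 (log2 fold change 1.90, SE 0.12, edgeR adjusted p = 0.00011). Of the membrane-cytoskeleton linkers, moesin and radixin were lower and ezrin was higher. Msn was 339 ± 7.77 CPM in mK4 and 966 ± 27.3 CPM in mK3 (edgeR adjusted p = 1.52e-05). Rdx had a log2 fold change of -0.33 (SE 0.07, edgeR adjusted p = 0.00946). Ezr was 142 ± 9.70 CPM in mK4 and 80.3 ± 7.06 CPM in mK3 (edgeR adjusted p = 0.000883). The Rdx call was lost without TMM scaling (edgeR adjusted p = 0.0513, range 1.51e-06 to 0.0513 over 13 alternatives).

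Acid-base partners rose in 4 of 11 tested cases and fell in 1. The cell surface carbonic anhydrase gene Car9 was 12.3 ± 1.30 CPM in mK4 and 0.321 ± 0.121 CPM in mK3, and the mitochondrial Car5b was 328 ± 9.58 CPM in mK4 and 92.2 ± 17.5 CPM in mK3 (edgeR adjusted p = 9.75e-05 and 0.000199). Atp6v0d1, a subunit of the vacuolar proton pump, was 159 ± 5.23 CPM in mK4 and 252 ± 5.66 CPM in mK3 (edgeR adjusted p = 0.000294). Of 13 tested renal ion channel genes 3 were higher and 2 lower. Trpm6, the magnesium channel of the distal tubule, was 5.44 ± 0.566 CPM in mK4 and 0.618 ± 0.111 CPM in mK3, and the magnesium transport gene Cnnm2 was 70.0 ± 11.8 CPM in mK4 and 27.8 ± 4.29 CPM in mK3 (edgeR adjusted p = 0.000184 and 0.00155). Clcn5, the endosomal chloride-proton exchanger of the proximal tubule, was 199.8 ± 20.2 CPM in mK4 and 490.1 ± 22.4 CPM in mK3 (edgeR adjusted p = 0.000128). Kcnj15, a potassium channel gene, had 0 counts in mK4 and 0.840 ± 0.257 CPM in mK3, at least 40.8-fold lower against the floor (edgeR adjusted p = 0.0018).

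Calcium and phosphate handling had 3 of 10 tested genes higher and 2 lower. The plasma membrane calcium pump gene Atp2b4 was 10.1 ± 1.52 CPM in mK4 and 78.0 ± 8.23 CPM in mK3 (log2 fold change -2.95, SE 0.15, edgeR adjusted p = 4.95e-05), and Fgfr1, a receptor for the phosphate hormone FGF23, was 17.4 ± 0.620 CPM in mK4 and 42.0 ± 2.77 CPM in mK3 (edgeR adjusted p = 0.000158). The phosphate exporter gene Xpr1 was 214 ± 2.85 CPM in mK4 and 165 ± 13.6 CPM in mK3 (edgeR adjusted p = 0.0083). Stc1, a hormone of calcium and phosphate balance, was 0.618 ± 0.222 CPM in mK4 and at 0 in mK3, at least 27.4-fold higher against the floor (edgeR adjusted p = 0.00276).

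Open chromatin at the gene starts was read from the peak lists, 34710 peaks in mK4 and 22477 in mK3, with 1 library per line and hence no test. A peak within 1 kb of a start, or of either gene end for the 20 members whose strand was not in the tables, was listed for 25 of 72 members in mK4 (34.7%) and 22 in mK3 (30.6%), beside 45.8% and 41.5% of all protein-coding genes with coordinates. Among the 42 tested members these numbers were 23 in mK4 and 21 in mK3, beside 69.6% and 63.5% of tested protein-coding genes, so that both counts lay below the background share. Starts were those of the RefSeq windows, for members and background alike, and these can miss the 5′ end of a gene's span. Slc4a7, Slc4a2 and Slc26a8 were thus not counted, although peaks of both lines lay over that end. Their fold enrichments were 9.15, 7.70 and 7.02 in mK4 and 7.41, 3.60 and 4.89 in mK3. Counts of members and of the background can therefore be too low. By the starts used, peaks were listed in both lines for 19 tested members, of which 8 were called higher and 5 lower. Of the 8033 tested protein-coding genes of that class, 1910 were called higher and 1987 lower. In mK4 alone peaks were listed for 4 tested members, Slc4a11, Slc20a2, Slc26a4 and Fxyd5, all called higher. Their median log2 fold change was 2.69, beside 0.44 for the 1472 tested protein-coding genes of that class. Of those 1472 genes, 612 were called higher and 190 lower. In mK3 alone peaks were listed for 2 tested members, among them Slc4a4, called lower. Of the 644 tested protein-coding genes of that class, 75 were called higher and 313 lower. With a -log10 q of at least 10, Slc4a11, Slc20a2 and Slc26a4 kept no mK4 start peak and Slc4a4 no mK3 start peak. Fxyd5 kept its mK4 peak. The mK3 peak of Slc4a4, chr5:88887459-88887986, lay at a start inside the gene, whose RefSeq span begins at 88793858 on the plus strand. Peaks listed within that span began at 88884123 or later, and each line had 8 of them.

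The fold enrichments are the authors' own value for each peak. The peak of Slc26a4, chr12:31560831-31561070, had a fold enrichment of 3.63 with its summit at -946 bases from the start. That of Fxyd5, chr7:31041675-31042287, had a fold enrichment of 6.86 with its summit 504 bases after the start, and also lay within 1 kb of an end of Fxyd7. At Atp1b1 the listed peaks did not overlap, with a summit 406 bases after the start in mK4 and at -32 bases in mK3. Slc9a7, at 0 in mK4, had no start peak in either line.

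**Figure D5:**
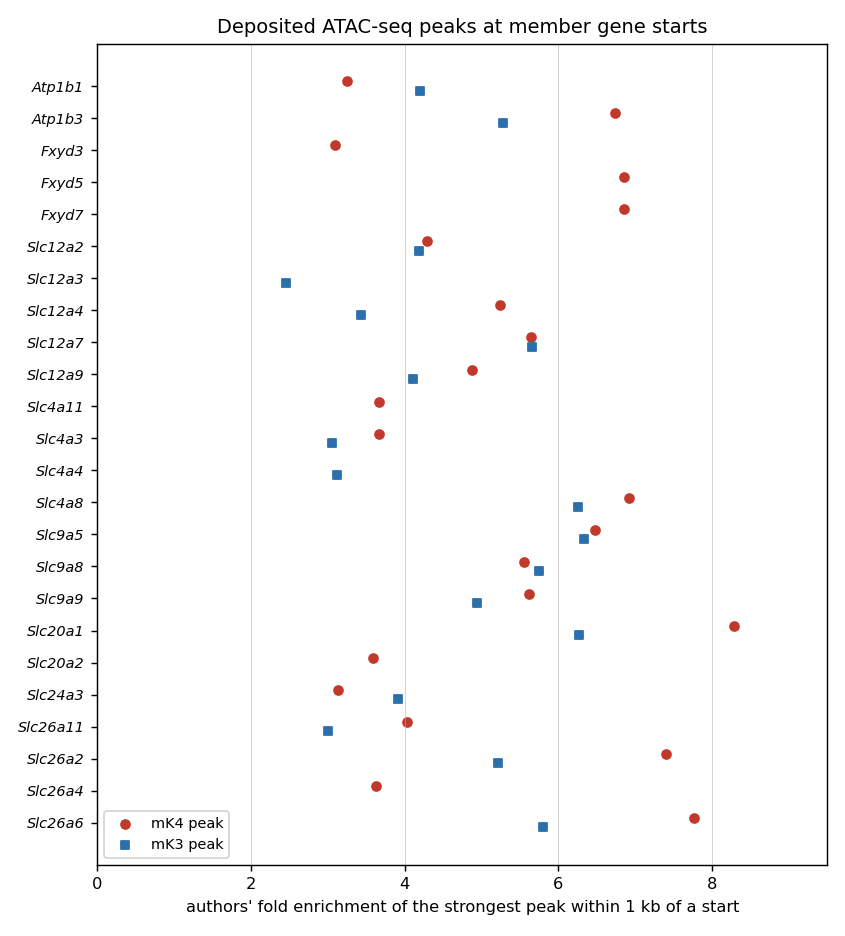
The authors' fold enrichment (x axis) of the strongest deposited ATAC-seq peak within 1 kb of a start for 24 members with a peak in either line (y axis, by family), mK4 (red circles) above mK3 (blue squares). Among the tested members shown, Fxyd5, Slc4a11, Slc20a2 and Slc26a4 have a peak in mK4 and none in mK3, and Slc4a4 the reverse. The Slc4a4 peak lies at a start inside the gene span. Of the members too low to be tested, Fxyd3 and Fxyd7 have a peak in mK4 only and Slc12a3 in mK3 only. For members without a recorded strand, among them Fxyd7, either gene end counted as a start. The Fxyd7 peak is the same peak as that shown for Fxyd5.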

How the data were processed

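Protein-coding genes were picked by symbol from a table of 6 RNA libraries. The authors deposited raw read counts, which were whole numbers throughout. The submitters' processing notes name MACS3, deepTools, bedtools, SAMtools, Bowtie2, HTSeq 2.0.2, STAR 2.7.10a and the build mm10, without saying which step used each. Per the labels' protocols, ribosomal RNA was depleted and libraries were strand-specific. The deposited peak lists give a fold enrichment (a ratio) and a -log10 q for each peak, per the column order of the format, with 1 library per line. No pair of replicates agreed within sampling noise.

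Counts of all Ensembl genes were fitted in edgeR 4.0.16 (R 4.3.3) (low counts removed by filterByExpr, sizes scaled by TMM, robust quasi-likelihood test of mK4 over mK3), called at an adjusted p under 0.05. SE is the log2 fold change divided by the root of the F statistic. CPM used TMM-scaled gene totals. DESeq2 1.42.0 was an alternative. Steps were tested on simulated data. Starts, spans and promoters came from RefSeq tables of GRCm38.p6, with strand for 52 of 72 members, and peaks were kept on the autosomes, X and Y. Figures were drawn with matplotlib 3.10.9.

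Members and lists were chosen with earlier results of these data known. Values per library are given for called members that changed at least 2-fold and averaged 0 or more in log2 CPM, and for 14 pump and segment genes whatever their value; from each partner list up to 2 called genes per direction were named. The other 6 called members, those named without a call, Wnk1, Wnk3, Oxsr1, Ezr and the pair ratios were chosen after their values were seen. Some members are not reported here by name, though the counts over all members include them.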

Additional observations from a re-analysis of the deposited data

How the results depend on the processing

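Across 13 alternatives, the 14 members called higher in mK4 numbered 10 to 16 and the 7 called lower 6 to 10. DESeq2 gave both upper ends, and omitting TMM scaling gave 16 higher too. All 21 calls were kept with RLE size factors, without the filter, without the robust step and with DESeq2, which called 26 members. The restriction to at least 1 CPM in all 6 libraries leaves 23 members in the test, so that 6 calls could not be made, and the partner genes called higher fell to 11, against 17. Leaving out 1 library gave 10 to 14 members higher and 6 or 7 lower, 14 to 19 partner genes higher and 10 to 13 lower, and 3446 to 3896 genes higher and 3388 to 3607 lower over all genes. Without TMM scaling the median log2 fold change of all genes was 0.13, against 0.02, and the members' median was 0.82, against 0.74. With at least 1 CPM in all 6 libraries the members' median fell to 0.20, beside 0.01 for all genes. Leaving out 1 library moved it between 0.33, without mK4 replicate 3, and 0.97, without mK3 replicate 1.

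Of 215 values of 17 members of the naming rule under the alternatives, 202 kept their direction and their side of the threshold, 9 lost the call and 1 gained it. The log2 fold change of Slc9a3, near 0 counts in both lines, changed sign to 0.43 with the replicate block, to 0.28 without mK4 replicate 2 and to 0.76 without mK3 replicate 2 (range -1.14 to 0.76 over left-out libraries), and the cause was not tested. Libraries of the lines with the same number share only a number: their deviations from the line means correlated at -0.02, 0.02 and 0.01. With that number as a replicate block, 11 members were higher and 7 lower, and Slc4a7, Slc26a4 (edgeR adjusted p = 0.0555, range 1.74e-07 to 0.0555 over 12 alternatives) and Slc26a11 lost their calls, as did, of the partner genes described, Stc1 (edgeR adjusted p = 0.0512, range 8.88e-09 to 0.0512 over 12 alternatives). The 30 members that were not tested had at most 98 counts in a library. A -log10 q of at least 10 left start peaks at 16 members in mK4 and 14 in mK3, and a window of 5 kb gave 30 and 26.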

Other observations

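Genes next to the named families by function were looked at after their values were seen. The Nkain genes encode small membrane proteins that bind the sodium pump beta subunit. Nkain2 had 0 counts in all mK4 libraries and 7218, 7116 and 5674 counts in the mK3 libraries, 49.9 ± 4.05 CPM, at least 2427-fold lower in mK4 against a floor of 3 counts per library (edgeR adjusted p = 3e-05). Nkain1 stood at 95.5 ± 12.8 CPM in mK4 and 133 ± 28.5 CPM in mK3 (edgeR adjusted p = 0.0748), and Nkain3 and Nkain4 were at 0 in all 6 libraries. Slc41a2, a magnesium carrier gene, rose to 269 ± 26.6 CPM in mK4, against 163 ± 8.10 CPM in mK3 (log2 fold change 0.73, SE 0.09, edgeR adjusted p = 0.00127), while Slc41a1 and Slc41a3 did not pass (edgeR adjusted p = 0.181 and 0.171). Slc8b1, the mitochondrial sodium-calcium exchanger gene, stood at 16.3 ± 4.86 CPM in mK4 and 14.2 ± 1.95 CPM in mK3 (edgeR adjusted p = 0.551).

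The noncoding gene Slc13a2os reached 53, 109 and 51 counts in the mK4 libraries, against 0 in each mK3 library (edgeR adjusted p = 0.0038), at least 21.3-fold higher against the floor, while Slc13a2 itself was at 0 in all 6 libraries.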
